A study of Mus musculus with 67 samples.

Results

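The genes described are the transcriptional coactivators YAP (Yap1) and TAZ (Wwtr1), their 4 DNA-binding partners (Tead1, Tead2, Tead3 and Tead4), the TEAD cofactor Vgll3, and 3 genes known as YAP and TAZ targets (Ankrd1, Amotl2 and Lats2). These 10 genes were taken by name from a table of 39179 gene rows, and all 10 were found by symbol. A gene was kept for comparison where its mean reached 10 in 1 of the groups and reads were seen in 25% or more of that group's cells. Of the 10 genes, 8 were among the 8682 genes kept, and Tead3 and Tead4 were not.

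YAP and TAZ carry no DNA-binding domain of their own and act on genes through the TEAD proteins, which recognise a short motif close to GGAATG. When the Hippo kinases MST and LATS are active, YAP and TAZ are phosphorylated, held in the cytoplasm by 14-3-3 proteins and degraded. Stiff substrates, cell spreading and actin tension favour their entry into the nucleus, and in vascular smooth muscle they are known for a part in the shift from contractile to proliferative cells. Much of this control acts on the proteins, which were not measured here, so the values below are transcript levels only.

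Single smooth muscle cells cultured from the descending aorta of male C57Bl6 mice aged 3 to 4 months were sequenced 1 by 1, with 22 taken at passage 1 and 45 at passage 2. Isolated cells were grown in DMEM with 10% fetal bovine serum for 5 days to give passage 1, and passage 2 was grown from these after trypsin treatment. No genotype, drug or vector differed between the passages, and neither group holds uncultured cells. Each cell was captured on a Fluidigm C1 chip and made into 1 library. Which animal or culture a cell came from is not labelled. Each passage therefore counts as 1 sample: differences between passages have no replicate check, no p-value is given, and an SD over cells describes cells, not cultures. The 2 passages also carry different library prefixes, so passage and library set cannot be told apart.

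Cells had 817021 to 1561129 reads at passage 1 and 548419 to 1509589 at passage 2, with medians of 8477.5 and 7257 genes. Of 10 smooth muscle markers, at least 3 reached a value of 10 in 20 of 22 and in 45 of 45 cells, and their summed value ran from 281 to 8633 (median 1545) at passage 1 and from 1371 to 29932 (median 7339) at passage 2. Desmin was at 0 in every passage 1 cell. At least 3 of 10 endothelial markers reached 10 in 5 passage 1 and 2 passage 2 cells, called endothelial marker cells here. The summed endothelial markers ran from 0 to 5153 and from 0 to 6874, and Cldn5 was at 0 in all cells. At least 3 of 10 fibroblast markers reached 10 in 18 and 35 cells, and macrophage markers did so in 1 and 0. Mki67 or Top2a, genes of dividing cells, reached 10 in 16 of 22 and 10 of 45 cells, called cycling here. These numbers differ between the passages, and their part in the values below was not tested beyond leaving those cells out.

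RefSeq promoter windows of 300 bases (250 before and 50 after an annotated start, GRCm38.p6) were given for 8 of the 10 genes. Windows for Tead1 and Tead4 were not used here. The TEAD motif GGAATG, on either strand, was in a window of 7 of these 8 genes, the exception being Tead2, and 16.6% of the 27025 genes with a window had it. Counted by window, 9 of the 12 windows of these genes held it, against 14.7% of all 32851. Of the target list, 7 of 15 genes with a window had it. The AP-1 motif TGANTCA, known to lie near TEAD sites in many enhancers, was in none of the 8 and in 7.81% of all windows. A match is a string of letters and was not tested for binding.

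The windows of both coactivator genes hold a motif, so the 250 bases before their starts are printed 5′ to 3′ on the gene strand, with the motif in capitals. The Wwtr1 stretch is chr3:57575911-57576160 and the Yap1 stretch chr9:8004597-8004846, both on the minus strand.
Wwtr1: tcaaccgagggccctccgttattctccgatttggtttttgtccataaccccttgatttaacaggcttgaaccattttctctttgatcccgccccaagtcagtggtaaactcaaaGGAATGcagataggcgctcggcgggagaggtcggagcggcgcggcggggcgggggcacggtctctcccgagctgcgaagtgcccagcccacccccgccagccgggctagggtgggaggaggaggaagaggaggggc
Yap1: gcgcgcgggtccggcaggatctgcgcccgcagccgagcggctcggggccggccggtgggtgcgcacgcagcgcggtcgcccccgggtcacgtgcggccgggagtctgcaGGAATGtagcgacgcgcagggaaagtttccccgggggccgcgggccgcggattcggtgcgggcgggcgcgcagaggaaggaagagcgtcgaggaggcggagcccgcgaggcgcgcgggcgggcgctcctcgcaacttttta
In Wwtr1 the motif begins 136 bases before the start and in Yap1 141 bases before it. No GENCODE gene model covers either motif.

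Motifs of the cofactor and the target genes are shown in their 30 bases of context, since these are the genes whose levels are set beside those of the coactivators. Capitals again mark GGAATG or its reverse complement CATTCC. They lie at chr19:36120037-36120066 and chr19:36119950-36119979 for Ankrd1 (minus strand), chr9:102717727-102717756 for Amotl2 (plus strand), chr16:65815114-65815143 for Vgll3 (plus strand) and chr14:57746102-57746131 for Lats2 (minus strand).
Ankrd1, 210 bases before the start: gtcactgccaaaGGAATGaccctctcacat
Ankrd1, 123 bases before the start: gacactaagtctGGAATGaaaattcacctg
Amotl2, 65 bases before the start: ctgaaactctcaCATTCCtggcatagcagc
Vgll3, 63 bases before the start: cccgcctccccaCATTCCggctaccctgcc
Lats2, 5 bases after the start: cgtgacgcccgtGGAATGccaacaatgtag
Ankrd1 was the only target of the 3 with a pair of motifs before its start. GENCODE places the Ankrd1, Amotl2 and Lats2 motifs in an untranslated part of an exon of the gene itself, and no gene model covers the Vgll3 motif.

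Values below are normalized counts, which are reads divided by 1 size factor per cell. Yap1 (chr9:7931999-8004596) lay at 0, 64.2 and 118 (lowest, median and highest cell) at passage 1. At passage 2 its lowest, median and highest cells were 0.952, 58.5 and 244. The passages overlapped almost fully, and the cells above 118 were all at passage 2. The mean was 64.1 ± 31.8 (SD, n = 22 cells) at passage 1 and 71.2 ± 64.0 (SD, n = 45 cells) at passage 2, so cells differed more from one another at passage 2, with a CV of 0.497 against 0.899. The log2 ratio, here the passage 2 value of log2(mean + 1) less its passage 1 value, was 0.15.

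Wwtr1 (chr3:57455649-57575910) spread over a wider range than Yap1 in both passages. Its lowest, median and highest values were 0, 98.8 and 734 at passage 1. At passage 2 they were 0, 74.8 and 895. The means, 162 ± 192 and 184 ± 239, gave a log2 ratio of 0.18, while the medians ran the other way (-0.40 on the same scale). Passage 2 was higher in 50.4% of all pairs of a passage 1 with a passage 2 cell, so the 2 groups were not separated. At passage 1 the 5 endothelial marker cells averaged 333 ± 259 and the other 17 averaged 112 ± 141. The log2 ratio without endothelial marker cells was 0.57.

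Levels of 2 genes were compared per kb of exon, because longer transcripts give more reads. Exon length joined all annotated exons of a gene, 9257 bases for Yap1 and 4779 for Wwtr1. Their longest transcripts have 5282 and 4697 bases, so this choice of length lowers Yap1 more than Wwtr1. On that scale Wwtr1 made up 83% of the summed mean level of both coactivators at passage 1 and 83.3% at passage 2. Cell by cell the balance shifted: Wwtr1 was the higher in 14 of 22 and 28 of 45 cells, and Yap1 in 8 and 17. Most cells carried both. Yap1 and Wwtr1 each reached a value of 10 in 16 of 22 and 31 of 45 cells, Yap1 alone in 5 and 9, Wwtr1 alone in 1 and 3, and neither in 0 and 2 cells.

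**Figure D1:**
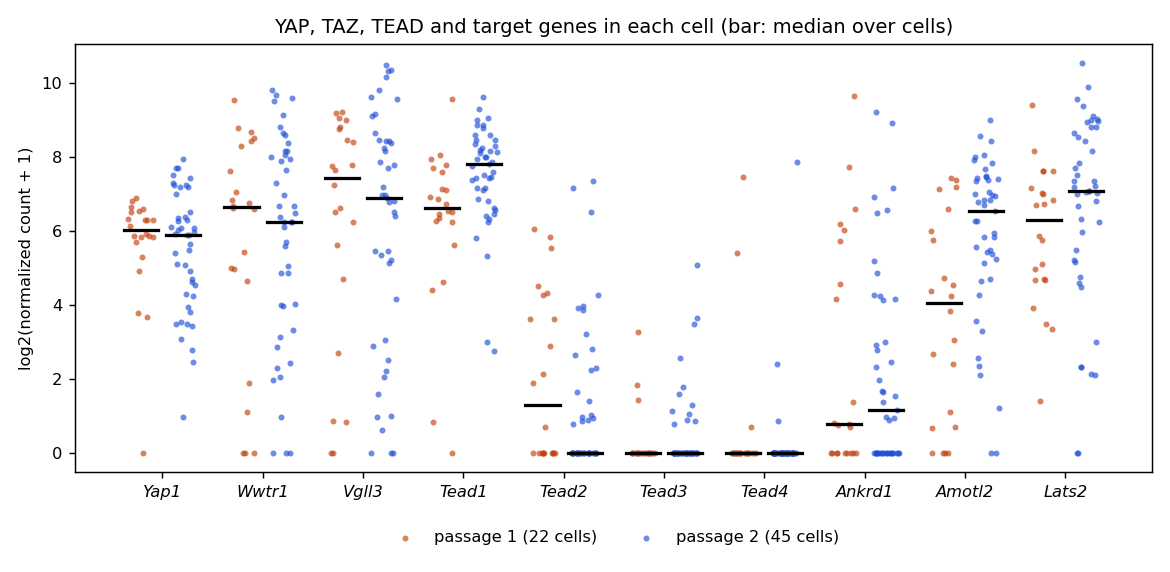
Each point is 1 cell, the y axis is log2(normalized count + 1) and bars mark the median over the cells of a passage (22 at passage 1, 45 at passage 2). Yap1 keeps nearly the same median in both passages (64.2 and 58.5 before the log), the Tead1 and Amotl2 medians are higher at passage 2, and Tead3 and Tead4 sit at 0 in most cells.

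Among the DNA-binding partners, Tead1 was the main transcript, and its mean was higher at passage 2. Tead1 (chr7:112679318-112906807) had lowest, median and highest values of 0, 97.7 and 754 at passage 1. The corresponding passage 2 values were 5.77, 222 and 778. The ranges overlapped, with 11 of 22 and 35 of 45 cells at 100 or above. Its mean was 140 ± 156 at passage 1 and 246 ± 167 at passage 2, a log2 ratio of 0.81, and passage 2 was higher in 73.6% of cell pairs. The highest passage 1 cell, an endothelial marker cell, held 24.5% of the passage 1 sum, and without it the log2 ratio was 1.14.

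Tead2 (chr7:45215753-45233644) was low in most cells. Values of 10 or more occurred in 8 of 22 and 7 of 45 cells, the medians were 1.65 and 0, and the highest cells reached 65.2 and 162. Its means of 11.9 ± 19.3 and 10.9 ± 33.9 gave a log2 ratio of -0.11, which turned sign on leaving out 1 of 3 cells. Its gene model overlaps that of Cd37 on the opposite strand, which had no read in any cell.

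Tead3 and Tead4, which complete the TEAD family, did not pass the filter. Tead3 (chr17:28331671-28350817) reached 10 in 0 of 22 and 3 of 45 cells and rested on 18 reads (exact Poisson 95% interval 10.7 to 28.4) at passage 1 and 64 (49.3 to 81.7) at passage 2. These intervals cover counting error only. Tead4 (chr6:128224288-128300823) came from few cells: it reached 10 in 2 of 22 and 1 of 45 cells. At passage 1 these stood at 172, which was 80.5% of the passage 1 sum, and 41.2, and 1 cell held 97.8% of the passage 2 sum, at 231. The log2 ratio of Tead4 ran from -3.27 to 1.07 depending on the cell left out, so no direction is given. The passage 1 cell at 172 was an endothelial marker cell.

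Per kb of exon, Tead1 made up 66.2% of the summed mean TEAD level at passage 1 and 82% at passage 2. Tead2 gave 15.9% and 10.3%, Tead4 17.4% and 6.62%, and Tead3 0.562% and 1.05%. Tead1 was the highest of the 4 in 16 of 22 and 42 of 45 cells, and its median share within a cell was 89.5% and 98.9%. The exceptions were led by Tead2 (4 and 2 cells) or Tead4 (2 and 1 cells). Exactly 1 TEAD gene reached a value of 10 in 13 of 22 and 34 of 45 cells, 2 or more did in 8 and 9, and none did in 1 and 2. A coactivator and a TEAD gene were both at 10 or above in 21 of 22 and 41 of 45 cells.

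**Figure D2:**
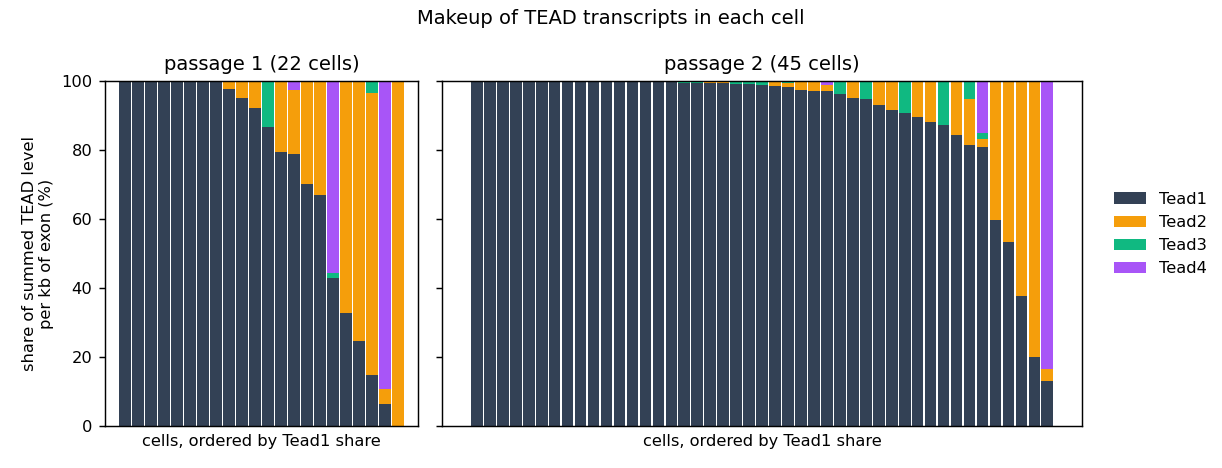
Each bar is 1 cell, ordered by its Tead1 share, and the stacked colours give the percentage of the summed TEAD level per kb of exon from each of the 4 genes. Tead1 fills most of the bar in the majority of cells of both passages, being highest in 16 of 22 passage 1 and 42 of 45 passage 2 cells, and Tead2 or Tead4 fills the remaining few.

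The cofactor Vgll3 (chr16:65815257-65866368), which binds TEAD proteins through a vestigial-like domain in place of YAP or TAZ, was among the highest of the 10 genes. Its lowest, median and highest values were 0, 173 and 590 at passage 1. Those at passage 2 were 0, 118 and 1426. The means of 222 ± 211 and 284 ± 388 gave a log2 ratio of 0.36, while the medians gave -0.55, since a few passage 2 cells were very high. Passage 2 was higher in 49.2% of cell pairs. Cycling passage 2 cells averaged 93.3 ± 125 (n = 10 cells) and the other 35 averaged 339 ± 420, while at passage 1 the 16 cycling and 6 other cells averaged 214 ± 207 and 242 ± 242. Vgll3 was at most 1.00 in the 2 endothelial marker cells of passage 2. At passage 1 the 5 such cells averaged 188 ± 229 and the other 17 averaged 232 ± 212.

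Of the targets, Amotl2 had the largest log2 ratio between passages of the 10 genes. Amotl2 (chr9:102716672-102733418) encodes an angiomotin-like protein that binds YAP and restrains it, and is itself known as a YAP target. At passage 1 its lowest, median and highest values were 0, 15.5 and 170. At passage 2 they were 0, 91.6 and 508. Most passage 2 cells lay above the passage 1 median, and the ranges overlapped at their lower ends. A value of 10 was reached in 12 of 22 cells (54.5%, Clopper-Pearson 95% interval 32.2 to 75.6) and 38 of 45 cells (84.4%, 70.5 to 93.5). Its mean was 43 ± 59 at passage 1 and 114 ± 111 at passage 2, a 2.61-fold ratio of (mean + 1) and a log2 ratio of 1.38. Under every alternative scaling, summary and subset of cells tried, this ratio was between 1.06 and 2.48.

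Lats2 (chr14:57689662-57758388), the kinase that phosphorylates YAP and TAZ and is also a target of them, had the next log2 ratio. Its lowest, median and highest values were 1.64, 80.5 and 673 at passage 1. At passage 2 they were 0, 134 and 1465. Both groups spread over the same low range, and 29 of 45 passage 2 cells stood at 100 or above against 11 of 22. The means of 116 ± 147 and 248 ± 294 gave a log2 ratio of 1.10, and 63.1% of cell pairs were higher at passage 2. Several choices took Lats2 below 2-fold: 0.96 as counts scaled to total reads, 0.70 as the mean of log2 values, 0.73 between medians, and 0.93 without its highest passage 2 cell. In cells not marked as cycling it averaged 38.7 ± 52.1 (n = 6 cells) and 253 ± 310 (n = 35 cells), a log2 ratio of 2.68.

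Ankrd1 (chr19:36111961-36120099), an ankyrin repeat protein of muscle and a target often used as a YAP readout alongside Ccn1 and Ccn2, was silent or nearly so in most cells. Its lowest, median and highest values were 0, 0.714 and 797 at passage 1. At passage 2 they were 0, 1.24 and 591. Values of 10 or more occurred in 8 of 22 and 12 of 45 cells. The means of 60.6 ± 172 and 37.5 ± 114 gave a log2 ratio of -0.68, but 1 passage 1 cell held 59.8% of the passage 1 sum. Without that cell the log2 ratio was 0.54, and without either of 2 high passage 2 cells it was -1.11 or -1.25. It was 1.09 without cycling cells, 0.72 when the 25% of cells with fewest genes were dropped, and 0.39 between medians. Passage 2 was higher in 49.1% of cell pairs, and no direction is given for Ankrd1.

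Counted together, 2 of the 8 genes kept (Amotl2 and Lats2) were at least 2-fold higher at passage 2 and 0 were at least 2-fold lower. Among all 8682 genes kept, 14.4% were at least 2-fold higher and 19.4% at least 2-fold lower. The median log2 ratio was 0.27 over the 8 genes and -0.11 over all genes kept. Lats2 lay just inside the 2-fold line and Tead1 just outside it. Leaving out single cells gave 1 to 3 genes at least 2-fold higher, with Tead1 crossing the line without passage 1 cell 12 and Lats2 without passage 2 cell 10 or 36.

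Depth differed between passages, so shares of cells with any read were also taken after thinning every cell to 500000 reads, which left out no cell. Ankrd1 had a read in 59.1% and 57.8% of cells before thinning and in 40.9% and 51.1% after it. Tead2 had one in 54.5% and 44.4% before and in 40.9% and 40% after. For Amotl2 the shares were 81.8% and 95.6% before and 72.7% and 95.6% after. Thinning was a single random draw. Clopper-Pearson 95% intervals before it overlapped between passages for each of these genes. They were 36.4 to 79.3 and 42.2 to 72.3 for Ankrd1, 32.2 to 75.6 and 29.6 to 60.0 for Tead2, and 59.7 to 94.8 and 84.9 to 99.5 for Amotl2. The Ankrd1 and Tead2 shares shifted with depth, and no match or gap is read from them. The Amotl2 share stayed higher at passage 2.

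The endothelial marker cells had the higher Wwtr1 and Tead1 means in both passages. Besides their passage 1 values given above, the 2 such cells of passage 2 averaged 552 ± 237 for Wwtr1 and the other 43 averaged 167 ± 228. Tead1 averaged 234 ± 297 in the 5 such cells of passage 1 against 112 ± 80.2 in the other 17, and 437 ± 263 against 237 ± 161 at passage 2. Yap1 went the other way at passage 1, with 39.5 ± 36.2 against 71.3 ± 27.5. The Tead1 medians of passage 1 ran against its means, at 89.1 in the 5 endothelial marker cells and 105 in the other 17. The highest of those 5 cells stood at 754. These are 5 and 2 cells, with ranges that overlap those of the rest.

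In order of level per kb of exon over all cells, the genes ran Vgll3 (37.2), Wwtr1 (37.0), Lats2 (29.3), Ankrd1 (15.6), Tead1 (15.5), Amotl2 (14.4), Yap1 (7.44), Tead2 (2.35), Tead4 (1.87) and Tead3 (0.185). No 2 neighbours in this order differed by more than the larger SD over cells, and the order differed between passages. At passage 1 Wwtr1 (33.9) stood above Vgll3 (31.3) and Ankrd1 (21) above Lats2 (16.6). At passage 2 Ankrd1 (13) stood below Tead1 (18.1) and Amotl2 (18.1). Yap1 was sixth at passage 1 and seventh at passage 2. The place of Ankrd1 came from a few cells, since Tead1 was above it in most cells and Ankrd1 was the higher in 14 of 67.

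The regulators around these genes were taken from lists of Hippo kinases and their regulators, of proteins that bind YAP, TAZ or TEAD, and of YAP and TAZ targets. Of 20 genes in the kinase list, all 20 were kept, 4 were at least 2-fold higher at passage 2 and 0 at least 2-fold lower, where 14.4% and 19.4% of all genes kept were, and the median log2 ratio was 0.23. The 4 were Lats2, Wwc1, Stk4 and the LATS cofactor Mob1b, which is named after its value was seen. Mob1b averaged 25.2 ± 41.4 and 56.2 ± 115, a log2 ratio of 1.13. Its medians were 6.74 and 2.04, and passage 2 was higher in 45.9% of cell pairs. Wwc1, the scaffold KIBRA that promotes LATS activity, had the largest ratio in the list. It was read 17 times at passage 1 and 1119 times at passage 2. A value of 10 was seen in 0 of 22 and 15 of 45 cells, so Wwc1 passed the filter through passage 2 alone. Stk4, the MST1 kinase, had means of 16.4 ± 28.3 and 40.5 ± 100, a log2 ratio of 1.25, with medians of 4.19 and 1.90.

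Of the 4 most abundant genes of that list, Lats2 is described above, and the means of the other 3 differed between passages by less than their SD over cells. Taok1, which activates MST kinases, averaged 508 ± 324 and 584 ± 644. Map4k4, which phosphorylates LATS kinases, averaged 264 ± 191 and 294 ± 191. Stk38l, the LATS-related kinase NDR2, averaged 106 ± 132 and 132 ± 169. At the lower end stood the LIM protein Ajuba, which restrains LATS, with a log2 ratio of -0.98 and means of 35.3 ± 65 and 17.3 ± 54.3, and the MST scaffold Sav1, at -0.87 with means of 32.3 ± 43.5 and 17.3 ± 47.5.

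Of 13 genes in the binding list, 11 were kept, of which 2 were at least 2-fold higher (Amotl2 and Tjp1), 1 at least 2-fold lower (Amot), against 14.4% and 19.4% of all genes kept, and the median log2 ratio was 0.20. Amot, a relative of Amotl2 that also binds YAP, had 290 reads at passage 1 and 1 read at passage 2, and passed the filter through passage 1 alone. Of the passage 1 sum, 54.4% came from cell 5, and without cell 1, 5, 12 or 20 of passage 1 the gene did not pass. Amot reached 10 in 4 of 22 and 0 of 45 cells, while Amotl2 did so in 12 and 38. The tight junction protein Tjp1 had means of 16.9 ± 25.2 and 38 ± 81.6 and a log2 ratio of 1.13, but its medians were 1.88 and 1.45 and passage 2 was higher in 47.1% of cell pairs.

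The most abundant gene of the binding list was Ywhaz, a 14-3-3 gene whose product holds phosphorylated YAP. Ywhaz averaged 2241 ± 493 and 3372 ± 1233, a log2 ratio of 0.59, and was higher at passage 2 in 78.2% of cell pairs. Ywhab, another 14-3-3 gene, averaged 337 ± 212 and 230 ± 212, a log2 ratio of -0.55. Alpha-catenin, Ctnna1, which holds YAP at cell contacts, averaged 291 ± 174 and 289 ± 187.

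Of 22 genes in the target list, 17 were kept, of which 8 were at least 2-fold higher and 0 at least 2-fold lower, against 14.4% and 19.4% of all genes kept, with a median log2 ratio of 0.87. This list was drawn up with earlier results of these data known, so its direction is not independent evidence. Amotl2, Lats2 and Ankrd1 belong to it. Gadd45a and Dock5, among the 8, are named after their values were seen. Gadd45a averaged 4.42 ± 8.69 and 10.7 ± 20.1, a log2 ratio of 1.11, and passed the filter through passage 2 alone. Dock5 had a log2 ratio of 1.01, but its medians were 2.54 and 0.944 and passage 2 was higher in 48.4% of cell pairs. Ccn2, the matricellular protein CTGF, averaged 234 ± 204 and 727 ± 445, a log2 ratio of 1.63, and was higher at passage 2 in 85.9% of cell pairs. Ccn1, the matricellular protein CYR61, averaged 394 ± 275 and 860 ± 636, a log2 ratio of 1.13. On those 2 genes most cells were high, unlike Ankrd1.

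The largest ratios among the kept genes of the target list belonged to secreted proteins. The matrix-associated protein Ccdc80 averaged 287 ± 213 and 2054 ± 1562, a log2 ratio of 2.84. The ligand Tgfb2 averaged 70.3 ± 99.2 and 359 ± 295, a log2 ratio of 2.33. The receptor tyrosine kinase Axl, at -0.73, and the Arf regulator Asap1, at -0.92, were lower at passage 2, and the RNA-binding protein Rbms3 had a ratio of 0.19. The list's median was -0.02 when log2 values were averaged over cells, where the median of all genes kept was also lower, at -0.62.

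**Figure D3:**
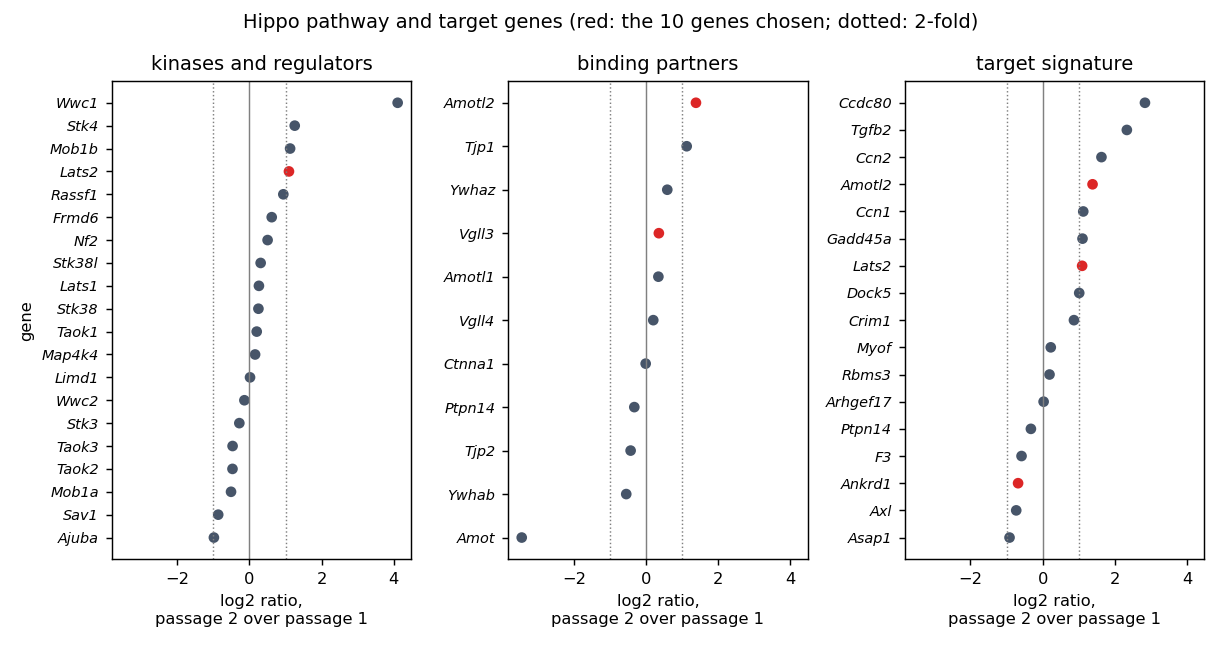
Each point is the log2 ratio of passage 2 over passage 1 for 1 gene kept, in the 3 pathway lists, with the genes described here in red and dotted lines at 2-fold in each direction. The target list has 8 genes to the right of the upper line and 0 to the left of the lower one, while most kinase and binding genes lie between the lines.

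Whether the genes vary together between cells was described by Spearman's rho over the cells of 1 passage, since the passages were never pooled. Only genes read in 50% or more of the cells were used, which left 8 genes and 28 pairs at passage 1 and 7 genes and 21 pairs at passage 2. The cells of a passage share a library prefix and differ in depth, so rho is a description with no p-value. At passage 1, 5 of 28 pairs had a rho of at least 0.3 and 3 of -0.3 or below, and among all gene pairs 12.6% and 6.96% did. At passage 2, 2 of 21 pairs reached 0.3 and 0 reached -0.3, against 3.81% and 1.89% of all gene pairs. The median rho was 0.05 and -0.02. Of the 21 pairs formed in both passages, 0 reached 0.3 in both, against 0.568% of all gene pairs.

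The 2 coactivators did not follow each other. Yap1 and Wwtr1 had a rho of -0.01 over the 22 passage 1 cells and 0.10 over the 45 passage 2 cells. Yap1 with Tead1 gave 0.03 and 0.13. Wwtr1 with Tead1 gave 0.12 at passage 1 and 0.37 at passage 2, where the 2 genes had a Pearson r of log2 values of 0.36. That passage 2 rho was 0.34 without endothelial marker cells and 0.46 without the 2 cells farthest from the Wwtr1 median.

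Tead1 was the gene with both passage 2 pairs at 0.3 or above, the other being with Amotl2, at 0.36 (Pearson r 0.56), against 0.06 at passage 1. Its rho with Lats2 at passage 2 was just under the line. Without the 2 cells farthest from the Tead1 median the rho with Amotl2 was 0.26, and without cycling cells 0.12. Tead1 also had a rho of -0.49 with the reads per cell at passage 2 and of 0.33 with the contractile actin Acta2. At passage 1 these were 0.29 and 0.04. The part of depth in these relations was not tested beyond scaling to total reads (0.34 for Tead1 with Amotl2) and thinning to 500000 reads per cell (0.38).

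At passage 1 each of the 5 positive pairs held Lats2 or Vgll3. Ankrd1 with Lats2 reached 0.53 (Pearson r 0.48), and stood at 0.39 without the 2 cells farthest from the Ankrd1 median. Ankrd1 with Vgll3 gave 0.40, Wwtr1 with Lats2 0.36, Tead1 with Vgll3 0.35 and Tead2 with Lats2 0.35. The corresponding passage 2 values were -0.10 for Ankrd1 with Lats2, -0.13 for Ankrd1 with Vgll3, 0.15 for Wwtr1 with Lats2 and -0.04 for Tead1 with Vgll3. Only 12 cells had reads of both Ankrd1 and Vgll3, and in those the rho was 0.06. Wwtr1 with Lats2 stood at 0.04 in the 19 cells with reads of both.

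The negative pairs of passage 1 were Tead1 with Tead2, at -0.54, and Yap1 with Amotl2, at -0.42, and with Vgll3, at -0.37. For Tead1 and Tead2 the value was -0.61 without the 2 cells farthest from the Tead1 median, and only 11 cells had reads of both. Tead2 had too few cells with a read at passage 2 for the same pair to be formed. Over passage 1 cells with reads of both genes, the rho of Yap1 was -0.36 with Amotl2 and -0.14 with Vgll3. Without the 2 cells farthest from the Yap1 median these pairs stood at -0.46 and -0.39. The Pearson r of Yap1 with Amotl2 at passage 1 was -0.18. At passage 2 the rho of Yap1 was -0.12 with Amotl2 and -0.02 with Vgll3.

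**Figure D4:**
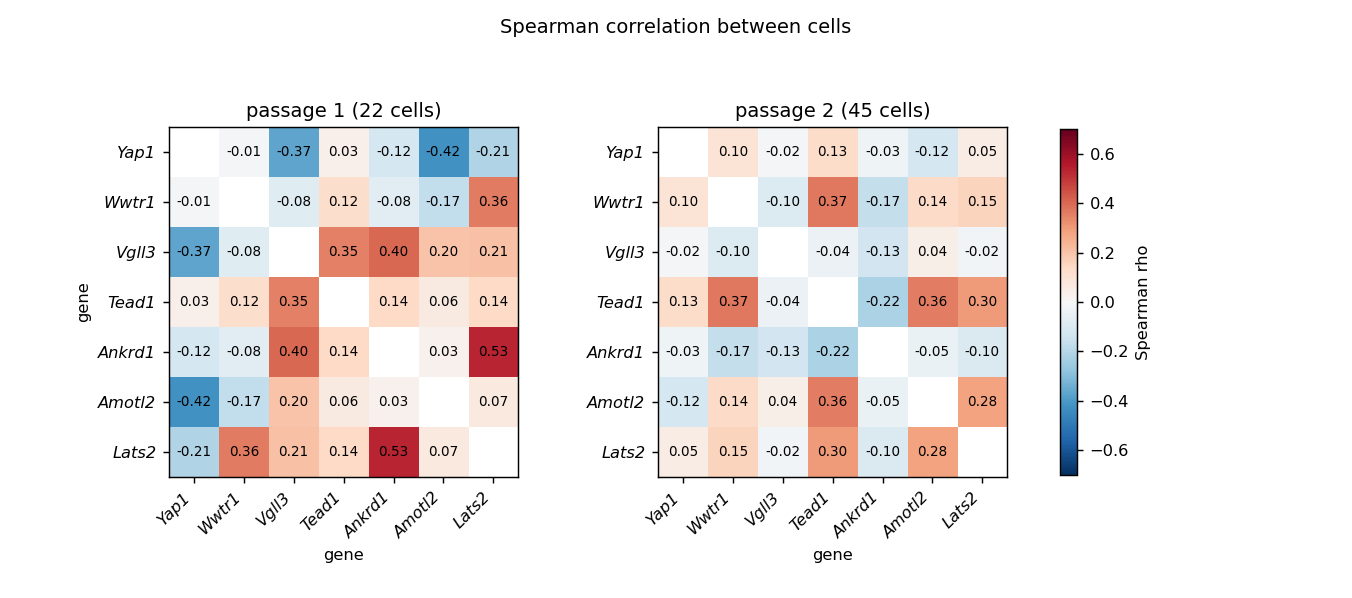
The 2 grids give Spearman's rho over cells for each pair of the 7 genes with reads in 50% or more of the cells of each passage, 22 cells on the left and 45 on the right, with red above and blue below 0. The passage 1 grid holds the more extreme values, such as 0.53 for Ankrd1 with Lats2, and the passage 2 grid has only the 2 Tead1 pairs at 0.37 and 0.36 above 0.3.

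The same genes were paired with the targets seen in 50% or more of the cells of each passage, which gave 113 distinct pairs. A rho of at least 0.3 was found for 17 pairs at passage 1 (15%) and 8 at passage 2 (7.08%), against 12.6% and 3.81% of all gene pairs. In both passages 2 pairs (1.77%) reached it, against 0.568% of all pairs of genes seen in 50% or more of the cells of each passage. These were Wwtr1 with Myof, the membrane repair protein myoferlin (0.64 and 0.43), and Vgll3 with Tgfb2 (0.49 and 0.46). Both pairs were singled out after their values were seen. Wwtr1 with Myof ranked at the 99.7th and 99.5th percentile of all genes compared with Wwtr1, and its Pearson r was 0.48 and 0.35. Vgll3 with Tgfb2 was between 0.37 and 0.71 under the alternatives tried, with a Pearson r of 0.53 in both passages.

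In the other direction, 11 pairs at passage 1 (9.73%) and 3 at passage 2 (2.65%) had a rho of -0.3 or below, against 6.96% and 1.89% of all gene pairs. In both passages 1 pair did (0.885%, against 0.185% of all pairs): Yap1 with Ccn1, at -0.63 and -0.36. This pair too was singled out after its values were seen. Its Pearson r of log2 values was weaker, -0.26 in each passage, and without endothelial marker cells the rho was -0.78 and -0.35. Yap1 also ran against the summed immediate early genes, with a rho of -0.49 and -0.26, and the part of that in its relation to Ccn1 was not tested. Wwtr1 with Tgfb2 changed sign, from 0.40 at passage 1 to -0.30 at passage 2.

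**Figure D5:**
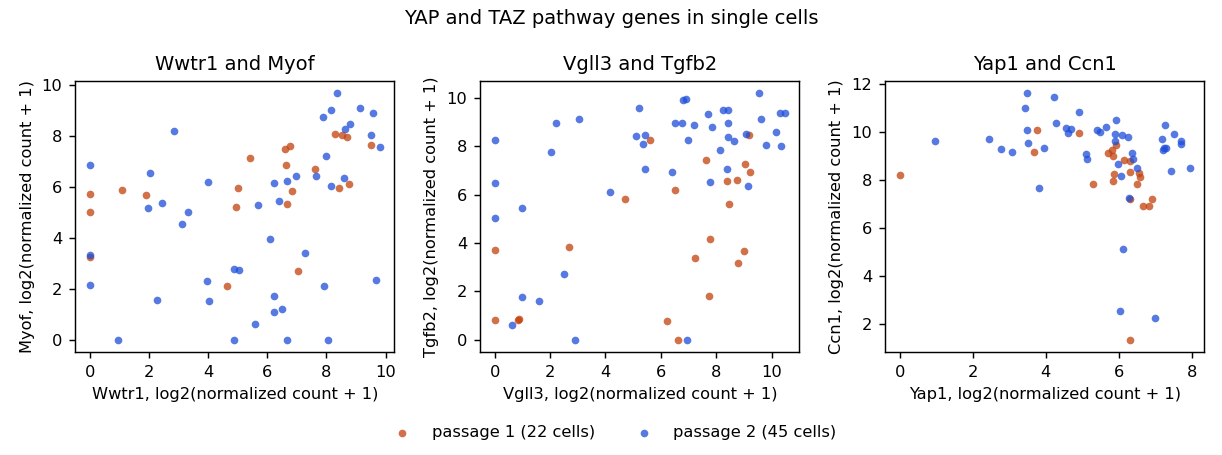
Each point is 1 cell at log2(normalized count + 1) of the 2 genes named on the axes, coloured by passage. The 3 panels pair Wwtr1 with Myof, Vgll3 with Tgfb2 and Yap1 with Ccn1, and points at 0 on an axis are cells with no read of that gene. In cells with reads of both genes, rho for Wwtr1 with Myof was 0.57 and 0.49.

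Relations to the state of the cell are given for both passages, and no difference between passages was tested. Amotl2 had a rho of 0.32 and 0.31 with the summed immediate early genes, and Vgll3 one of 0.42 and 0.32 with the genes read per cell. Wwtr1 had a rho of 0.62 with Acta2 and 0.51 with the summed endothelial markers at passage 1, and of -0.03 and -0.21 at passage 2. Wwtr1 with Acta2 at passage 1 was 0.65 without the endothelial marker cells. Amotl2 had a rho of -0.53 with the summed smooth muscle markers at passage 1 and of 0.16 at passage 2. Vgll3 had a rho of -0.34 with the G2 and M phase genes at passage 2 and of -0.02 at passage 1.

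The genes closest in pattern were named by the 3 highest rho among all genes seen in 50% or more of the cells. At passage 1, with 22 cells, these were Rpl26, Vasp and Gm13436 for Yap1 (highest 0.82), and Sorbs2, Psmb1 and Acsl5 for Wwtr1 (0.77). For Tead1 they were Cpox, Atp5l and Mef2d (0.75), and for Tead2 they were Snn, Gtf2e2 and Rrp36 (0.72). For Vgll3 they were Pdcl3, Gm6480 and Gm13372 (0.77). For the targets they were Rnf169, Slc12a2 and Taok3 with Ankrd1 (0.72), Ralb, Mettl9 and Gm26773 with Amotl2 (0.77), and Psmc4, Mrpl11 and Mns1 with Lats2 (0.76).

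At passage 2, with 45 cells, the 3 closest to Yap1 were Nf2, Col8a1 and Smim15. Nf2 encodes merlin, a Hippo activator, and its rho of 0.48 with Yap1 was 0.10 in the cells with reads of both genes. The closest to Wwtr1 were Coa7, Tspan4 and Neil3 (highest 0.63), and to Tead1 they were Pank2, Immt and Setd2 (0.57). Vgll3 had Bdnf, Sirt2 and Scfd1 (0.61). Ankrd1 had Lyrm4, Phyh and Ciapin1 (0.51), Amotl2 had Dnajc8, Pdgfrb and Dennd6a (0.57), and Lats2 had Sass6, Pcbp1 and Colgalt1 (0.54).

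For the 7 genes compared in both passages, 0 of these closest genes were shared between passages. Of the genes with a rho of at least 0.3 at passage 1, 2.18% (Yap1) to 6.19% (Vgll3) also reached 0.3 at passage 2. Over all 6254 genes compared, 1.66% to 5.95% reached 0.3 with the same 7 genes at passage 2. A high rho with 1 of these genes in 1 passage therefore recurred about as often as any gene's did.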

How the data were processed

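RNA was measured in 67 cells, 22 at passage 1 and 45 at passage 2, and groups came from the labelled passage. The deposited signal values are, per the file and the submitters' notes, counts of reads per gene after division by a DESeq size factor for each cell. BWA, SAMtools, HTSeq, DESeq and the GRCm38 genome are named in the submitters' processing notes with no versions, and strand and multi-mapping are not given in the sources used here. Gene models on the opposite strand overlap Yap1, Wwtr1, Tead1, Tead2, Tead4 and Lats2, and reads of overlapping genes cannot be told apart. On the same strand, the protein-coding model Gm49361 overlaps Lats2 and the miRNA Gm44462 overlaps Tead1. Neither of these same-strand models had a row of counts. Where an overlapping gene had a row, its mean was at most 1.01.

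The 10 genes, the pathway and marker lists and the alternatives were chosen with earlier results of these data known. Each column was divided by its smallest nonzero value to get reads back, and all 509576 nonzero values (100%) came out whole to within 0.001. No column lacked a sample, and no 2 cells had identical columns. Symbols, coordinates and exon lengths came from GENCODE M21. Filters, the log2 ratio and rho are defined where first used, with a pseudocount of 1. Called means at least 2-fold. All were computed over the whole table. No count test was run, since a passage is 1 sample. Doublets were not called.

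Named pathway genes were the 4 with the highest mean and the 2 highest and 2 lowest log2 ratios in each list. Exact Clopper-Pearson and Poisson intervals (95%) cover counting error only. Alternatives were pseudocounts of 0.1 and 10, filters, scaling to total reads, edgeR 4.0.16 TMM scaling, other summaries, thinning to 500000 reads, subsets of cells and leaving out each cell. Python 3.11.15, scipy 1.17.1 and R 4.3.3 were used, and the steps were tested on simulated data. Protein sequences were not used here.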

Additional observations from a re-analysis of the deposited data

How the results depend on the processing

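Each passage is 1 sample of 22 or 45 cells, so no alternative measures variation between cultures, and the sums of the 10 genes rest on as few as 18 reads (Tead3 at passage 1). No paired analysis was possible because the labels number no animal or culture shared between the passages. Amotl2 was at least 2-fold higher at passage 2 under all alternatives tried, single cells left out included, and Tead1 was higher in all of them. Scaling moved the median log2 ratio of all genes kept from -0.11 to 0.00 (TMM) and -0.18 (counts scaled to total reads). Other summaries over cells moved it to -0.62 (mean of log2 values) and -0.60 (medians over cells). The shares of all genes kept moved too: 39.8% were at least 2-fold lower with medians and 35.1% with means of log2 values, against 19.4%, and 24.3% were at least 2-fold higher without cycling cells, against 14.4%. The rank of a gene by level per kb moved in 23 of 40 comparisons. The cause of the differences below was not tested.

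The 10 genes were counted only where kept, which left out Tead3 and Tead4. Of the rest, 1 was at least 2-fold higher as counts scaled to total reads or thinned to 500000 reads, against 2. Between medians 1 (Tead2, with medians of 1.65 and 0) was at least 2-fold lower, against 0. Without endothelial marker cells, or without cycling cells, 3 were at least 2-fold higher. Of all genes kept, 16.8% and 24.3% were at least 2-fold higher in those 2 subsets. Tead4, not counted, had a log2 ratio of 2.93 without cycling cells and of -1.04 after thinning. Leaving out single cells gave 1 to 3 higher and 0 to 1 lower. The Tead1 and Vgll3 rho at passage 1 was -0.14 over the 6 cells not cycling, against 0.35.

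In the kinase list, 4 genes were at least 2-fold higher and 0 lower as reported. The higher count was 2 with a pseudocount of 10, with the stricter filter (a mean of 50 and 50% of cells) and after thinning. It was 1 with either medians or means of log2 values, 3 with counts scaled to total reads and without endothelial marker cells, and 7 after dropping cycling cells. The lower count was 1 with a pseudocount of 0.1 and without the 25% of cells with the fewest genes, 2 with counts scaled to total reads and thinning, 4 without cycling cells, 5 with means of log2 values and 7 with medians, where the list's median was -0.42. Leaving out single cells gave a lower count of 0 to 2 and a higher count of 3 to 5.

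In the binding list, 2 were higher and 1 lower. The higher count was 1 with a pseudocount of 10, the stricter filter, counts scaled to total reads, medians, means of log2 values, thinning, without endothelial marker cells, and at the lowest on leaving out a cell (1 to 2). It was 3 without cycling cells. The lower count was 0 with the stricter filter, thinning and without the 25% of cells with the fewest genes, 2 with medians and without cycling cells, 3 with means of log2 values, and 0 to 1 on leaving out a cell. Without passage 2 cell 21 the list's median was -0.01.

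In the target list, 8 were higher and 0 lower. The higher count was 5 after thinning. It was 6 with a pseudocount of 10, counts scaled to total reads, medians and means of log2 values. It was 7 with the stricter filter, without endothelial marker cells and without the 25% of cells with the fewest genes. With no filter it was 9, and leaving out single cells gave 7 to 8. The lower count was 1 with counts scaled to total reads, thinning, without endothelial marker cells and without cycling cells, 2 with no filter, 4 with either medians or means of log2 values, and 0 to 1 on leaving out a cell. The list's median was -0.016 with means of log2 values and 0.52 to 0.97 on leaving out a cell.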
